A study of Rattus norvegicus with 4 samples.

Results

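The genes described here take up, store, move and sense iron or break down heme, in a rat tracheal epithelial cell line. The list has 10 genes: the transferrin receptor Tfrc, the ferritins Fth1 and Ftl1, the iron transporters Slc11a2 and Slc40a1, the iron reductase Steap3, the iron regulatory proteins Aco1 and Ireb2, and the heme oxygenases Hmox1 and Hmox2. Members were the probe sets annotated to exactly 1 gene symbol that is on this list. These were 12 of the 15866 probe sets that are not controls, and they covered 8 of the 10 genes. Fth1 and Ftl1 had no probe set of their own, since those on the array are annotated to related loci as well, and they are not among the members. Their shared probe sets were tested with all others and are described at the end.

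RTEC11 cells come from rats that carry a transgene for a temperature-sensitive large T antigen of simian virus 40, a viral protein that drives division by inactivating p53 and the retinoblastoma proteins. The comparison was between cells held for 3 days at 39 °C, the nonpermissive temperature at which the antigen loses activity, and cells held for 3 days at 33 °C, the permissive temperature, with 2 arrays at each. All 4 samples are this 1 cell line and carry the transgene, and the sources used here do not name the promoter that drives it. Temperature and antigen activity changed together, so their effects cannot be told apart. The labels do not say whether the 2 arrays of a group came from separate cultures, so p-values here cover the spread between these arrays alone, which may be technical.

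Cells take up iron mainly as transferrin bound to the transferrin receptor. In the endosome a reductase such as Steap3 converts the iron to its ferrous form, and Slc11a2 (DMT1) carries it into the cytosol, where ferritin stores what is not used. Slc40a1 (ferroportin) is the exporter. When iron is scarce, Aco1 (IRP1) and Ireb2 (IRP2) bind iron-responsive elements in mRNAs: this stabilises Tfrc mRNA and blocks the translation of ferritin and ferroportin mRNA. Heme oxygenases open the heme ring and release its iron. Airway epithelium meets inhaled iron and heme as well as iron from the blood side.

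The upstream regions of the importers Tfrc and Slc11a2 and of the exporter Slc40a1 are shown because, among the member probe sets tested, those of Tfrc and 1 of the 2 of Slc11a2 had the lowest changes and 1 of Slc40a1 the highest. Each run is the 250 bases before the annotated start in RefSeq (build GRCr8), written 5′ to 3′ along the gene's strand. Capitals mark TGACGT, the core of a cyclic AMP response element, and GGGCGG, a GC box, on either strand. The positions are chr11:81690319-81690568, chr7:133417789-133418038 and chr9:55543461-55543710 in the order of the lines, all on the minus strand. Slc11a2 has a further annotated start, whose region held none of the motifs searched.
Tfrc: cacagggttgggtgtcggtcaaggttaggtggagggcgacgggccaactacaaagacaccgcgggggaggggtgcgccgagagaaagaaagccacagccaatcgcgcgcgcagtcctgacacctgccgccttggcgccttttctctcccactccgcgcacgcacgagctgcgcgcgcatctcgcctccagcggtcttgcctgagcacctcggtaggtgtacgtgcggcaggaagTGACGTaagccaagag
Slc11a2: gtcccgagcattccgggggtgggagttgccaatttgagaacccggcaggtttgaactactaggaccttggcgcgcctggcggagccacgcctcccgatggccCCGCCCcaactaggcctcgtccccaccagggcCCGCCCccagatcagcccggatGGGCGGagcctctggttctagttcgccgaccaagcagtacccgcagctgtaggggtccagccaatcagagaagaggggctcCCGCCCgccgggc
Slc40a1: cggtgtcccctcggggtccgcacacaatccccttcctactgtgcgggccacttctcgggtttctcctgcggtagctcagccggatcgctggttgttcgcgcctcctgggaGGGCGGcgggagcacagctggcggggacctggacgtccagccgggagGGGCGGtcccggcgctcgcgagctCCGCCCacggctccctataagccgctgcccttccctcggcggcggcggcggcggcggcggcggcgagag

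RefSeq windows were found for 7 of the 10 genes, all but Fth1, Ftl1 and Hmox1, which were not searched. There were 9 windows in all. TGACGT stood in 1 of these 9, that of Tfrc, where it begins 16 bases before the start. It stood in 6.95% of all 33469 rat windows of the same length. GGGCGG stood in 6 of the 9 windows and in 30.47% of all windows. The Tfrc region shown held none. Both motifs were chosen after the sequences were seen. Of the motifs fixed together with the gene lists, CACGTG (E-box) and TTCNNGAA (heat shock element core) were in none of the 9, against 5.59% and 7.48% of all windows. TGACNNNGC (antioxidant response element core) was in 1, that of Hmox2, against 10.08%. CAGTGN, the loop of an iron-responsive element, was not found in the first 50 bases after the start in any of the 9, against 7.26% of all windows. The rest of each transcript was not searched, so this does not show whether these mRNAs carry iron-responsive elements. These matches describe letters only.

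At 39 °C the mRNA of the transferrin receptor was lower: both Tfrc probe sets fell, 4.64-fold and 5.96-fold. Of the 2 Slc11a2 probe sets, 1 fell 2.45-fold and the other was not called. Both heme oxygenases fell less, Hmox1 1.85-fold and Hmox2 1.43-fold. The exporter Slc40a1 rose 1.66-fold by 1 probe set and was not called by another. The iron regulatory proteins and Steap3 were not called. Of the 12 member probe sets, 11 were bright enough to test, and 6 of these were called (limma, adjusted p under 0.05), 5 lower and 1 higher. The call rate of 54.5% was close to the 47.2% of all 9520 probe sets tested. The share called lower was 45.5%, against 24.7% of all probe sets, and the share called higher was 9.09%, against 22.5%. The 5 lower probe sets belong to 4 genes, so they are not independent. The median log2 change was -0.29 over the 11 and -0.03 over all tested.

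The 4 arrays had median intensities of 171.1 and 174.3 at 39 °C and of 152.7 and 155.6 at 33 °C. The number of arrays limits the precision. Epithelial identity was visible, with 9 of 11 airway epithelial markers above the limit for dim probe sets in these data, while the basal keratin Krt5 and the ciliary regulator Foxj1 were below it. Of the 9, Scgb1a1 passed only through the 39 °C arrays, at 646.8 and 534.7. At 33 °C it was at 38.7 and 58.3, under the limit. Of markers of other cells, 2 of 7 for macrophages (Csf1r and Cd14), 1 of 5 for erythroid cells (Epor), 1 of 8 for fibroblasts (Col3a1) and 0 of 4 for endothelial cells were above it. The summed macrophage markers were at 892.4 and 966.5 at 39 °C, against 1027.6 and 1058.7 at 33 °C. The summed fibroblast markers were at 355.7 and 433.8 at 39 °C, against 223.0 and 251.8 at 33 °C. That sum includes Col3a1, which was called higher, so the 2 are not separate signs. Col3a1 was at 263.5 and 172.8 at 39 °C, against 59.1 and 47.9 at 33 °C, where it lay under the limit for dim probe sets, so it passed that limit only through the 39 °C arrays. The leukocyte marker Ptprc was at 1.5 to 11.5 at 39 °C and 9.1 to 17.3 at 33 °C, near the bottom of the scale. The part of these markers in the results was not tested. In RNA from whole cultures, fewer cells of a type and less RNA per cell cannot be told apart.

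**Figure D1:**
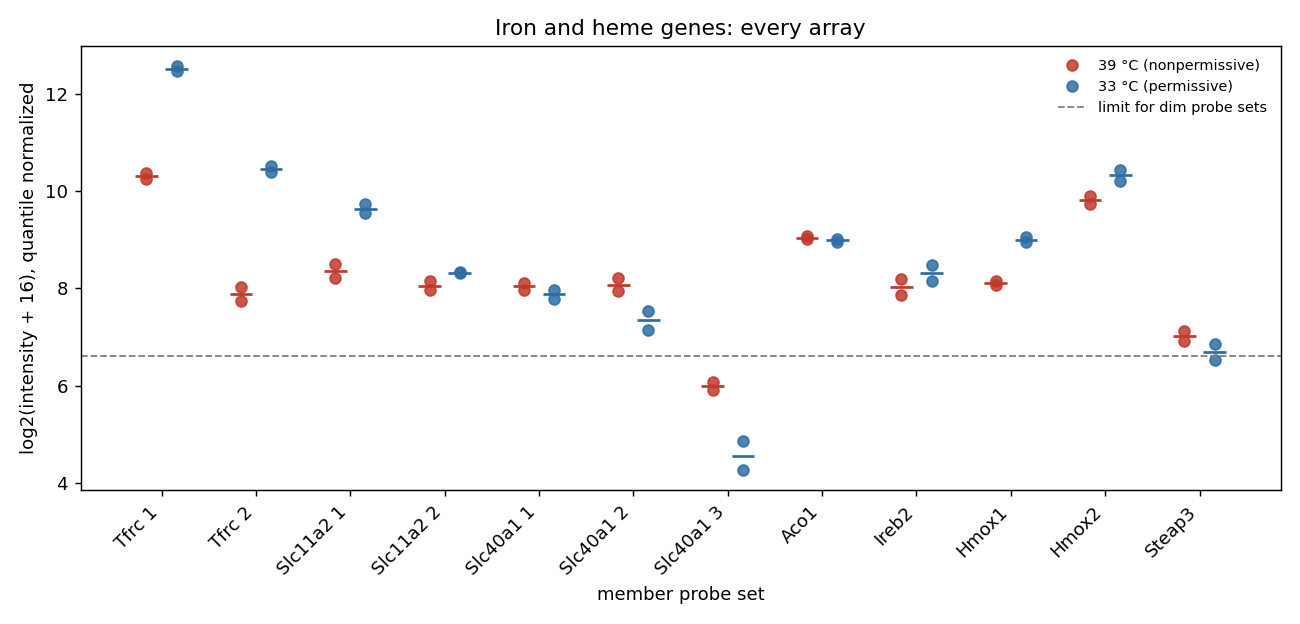
The 12 member probe sets on each array, as quantile-normalized log2(intensity + 16), with the 39 °C arrays left of the 33 °C arrays in each pair of columns, short bars at the means of 2 arrays and a dashed line at the limit for dim probe sets. Both Tfrc probe sets and the first Slc11a2 probe set have their 39 °C arrays far below their 33 °C arrays, whereas for Aco1 and Ireb2 the groups overlap.

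Tfrc, the receptor that binds iron-loaded transferrin at the cell surface, is covered by 2 probe sets. The brighter one had deposited intensities of 1206.7 and 1314.4 at 39 °C, against 6273.3 and 5875.8 at 33 °C. The dimmer one had 210.0 and 256.4 at 39 °C, against 1453.0 and 1336.2 at 33 °C. In both, every 39 °C array was far below every 33 °C array, and the groups did not overlap, as was also the case in 74.2% of all tested probe sets. The log2 changes were -2.21 ± 0.09 (SE, limma adjusted p = 4.39e-08) and -2.58 ± 0.14 (SE, adjusted p = 1.59e-07). Log2 changes are taken from quantile-normalized log2(intensity + 16), 39 °C minus 33 °C, so they understate the change of dim probe sets. Ordered from the most negative change, they stood at rank 16 and rank 7 of the 9520 probe sets tested. Both stayed called under every alternative tried for them, with log2 changes between -2.89 and -2.15.

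The 5 genes whose 4 values lay closest to those of the brighter Tfrc probe set were Psph, Zrsr2, F2rl1, Lnc215 and Gcsh. Closeness was the Euclidean distance between log2 values over the 4 arrays, each probe set centred on its own mean, and ran from 0.168 for Psph to 0.244 for Gcsh. Psph, the phosphatase that makes serine, was at 197.9 and 253.3 at 39 °C, against 989.8 and 976.1 at 33 °C. F2rl1, a protease-activated receptor, was at 804.8 and 736.7 at 39 °C, against 3487 and 3421.2 at 33 °C. Gcsh carries the H protein of the glycine cleavage system, and Zrsr2 encodes a splicing factor. Zrsr2 was at 46.9 and 51.3 at 39 °C, under the limit for dim probe sets, against 284.7 and 226.9 at 33 °C. It passed that limit only through the 33 °C arrays, and its log2 change ran from -2.49 to -1.58 over the alternatives. In the main fit, log2 changes of the 5 ran from -2.17 for Zrsr2 to -2.03 for Lnc215. With 4 arrays in 2 groups, such likeness is little more than a change of similar size.

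Slc11a2, the proton-coupled carrier of ferrous iron, gave different answers by its 2 probe sets. The brighter was at 358.2 and 293.3 at 39 °C, against 726.4 and 822.6 at 33 °C, a log2 change of -1.29 ± 0.14 (SE, limma adjusted p = 2.80e-05) and rank 206 from the most negative. The dimmer was at 282.3 and 245.4 at 39 °C, against 292.1 and 292.8 at 33 °C. Its groups did not overlap but lay close together, and the change of -0.27 ± 0.16 (SE, limma adjusted p = 0.175) was not called, with a 95% interval from -0.61 to 0.07. Under spike-in scaling, which sets each array by its poly-A control probe sets, it was called, at -0.52 (adjusted p = 0.0167).

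The unequal change of the 2 Slc11a2 probe sets can also be read within each array, here after quantile normalization. The brighter exceeded the dimmer by 0.35 and 0.25 log2 units at 39 °C, against 1.23 and 1.41 at 33 °C. The difference between the log2 changes was -1.02, with no overlap between groups. The exact two-sided permutation test gave p = 0.333, the smallest that 2 arrays against 2 allow. Slc11a2 transcripts are known to end in different ways, with or without an iron-responsive element. The annotation used here does not say which end either probe set detects.

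Steap3, the endosomal ferric reductase, lay just above the limit for dim probe sets. It was at 135.0 and 106.9 at 39 °C, against 93.7 and 72.1 at 33 °C. Both 39 °C arrays were above both 33 °C arrays, yet the change of 0.32 ± 0.25 (SE, limma adjusted p = 0.317) was not called, and its 95% interval ran from -0.23 to 0.88.

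Slc40a1, the only known exporter of iron from vertebrate cells, was measured by 3 probe sets that were higher at 39 °C by different amounts. The brightest was at 274.1 and 248.5 at 39 °C, against 221.8 and 194.7 at 33 °C, a log2 change of 0.17 ± 0.17 (SE, limma adjusted p = 0.436) with a 95% interval from -0.20 to 0.54. Spike-in scaling turned this change to -0.074. The next was at 295.7 and 242.2 at 39 °C, against 159.7 and 120.2 at 33 °C, and rose by 0.73 ± 0.20 on the log2 scale (SE, limma adjusted p = 0.0112).

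That Slc40a1 call was lost without nonpermissive replicate 1 (0.60, adjusted p = 0.115) and without permissive replicate 2 (0.53, adjusted p = 0.0535). It was lost too under spike-in scaling (0.49, adjusted p = 0.0596) and with no limit for dim probe sets (adjusted p = 0.0533). The last probe set was at 50.7 and 48.7 at 39 °C, against 3.0 and 11.6 at 33 °C. It lay under the limit for dim probe sets and was not tested with that limit in place. With no such limit it was called higher (limma adjusted p = 0.0229). Its groups did not overlap, but its log2 change of 1.43 became 2.68 with 1 added to each intensity and 0.64 with 64 added. Within each array the brightest stood above the second by -0.10 and 0.04 log2 units at 39 °C, against 0.42 and 0.63 at 33 °C, a difference between their changes of -0.56 (exact two-sided permutation p = 0.333).

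The iron regulatory proteins were near the middle of all changes. Aco1, which is a cytosolic aconitase when it holds an iron-sulfur cluster and binds mRNA when it does not, was at 510.8 and 539.4 at 39 °C, against 466.8 and 491.9 at 33 °C. The groups do not overlap on the deposited scale and overlap after quantile normalization. The log2 change was 0.046 ± 0.13 (SE, limma adjusted p = 0.786), with a 95% interval from -0.23 to 0.32. It turned to -0.021 with median-centred arrays and to -0.25 under spike-in scaling.

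Ireb2, which is controlled through the breakdown of its protein in iron-replete cells, was at 230.2 and 289.1 at 39 °C, against 255.3 and 331.3 at 33 °C. The groups overlapped, and the log2 change of -0.29 ± 0.18 (SE, limma adjusted p = 0.206) was not called. Its 95% interval ran from -0.68 to 0.10. Under spike-in scaling Ireb2 was called lower, at -0.54 (adjusted p = 0.0153).

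Both heme oxygenases fell at 39 °C. Hmox1 is the inducible enzyme, known to respond to heme, oxidants and, in rat cells, heat. It was at 280.7 and 267.8 at 39 °C, against 461.7 and 502.9 at 33 °C. All 39 °C values were well below all 33 °C values, with a log2 change of -0.89 ± 0.14 (SE, limma adjusted p = 0.00033) that stayed called under all 14 alternatives. Hmox2, the constitutive enzyme, was at 949.9 and 848.6 at 39 °C, against 1385.7 and 1152.1 at 33 °C. The groups did not overlap, and the log2 change was -0.51 ± 0.12 (SE, limma adjusted p = 0.00472). Its call was lost without nonpermissive replicate 2 (-0.44, adjusted p = 0.0539).

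**Figure D2:**
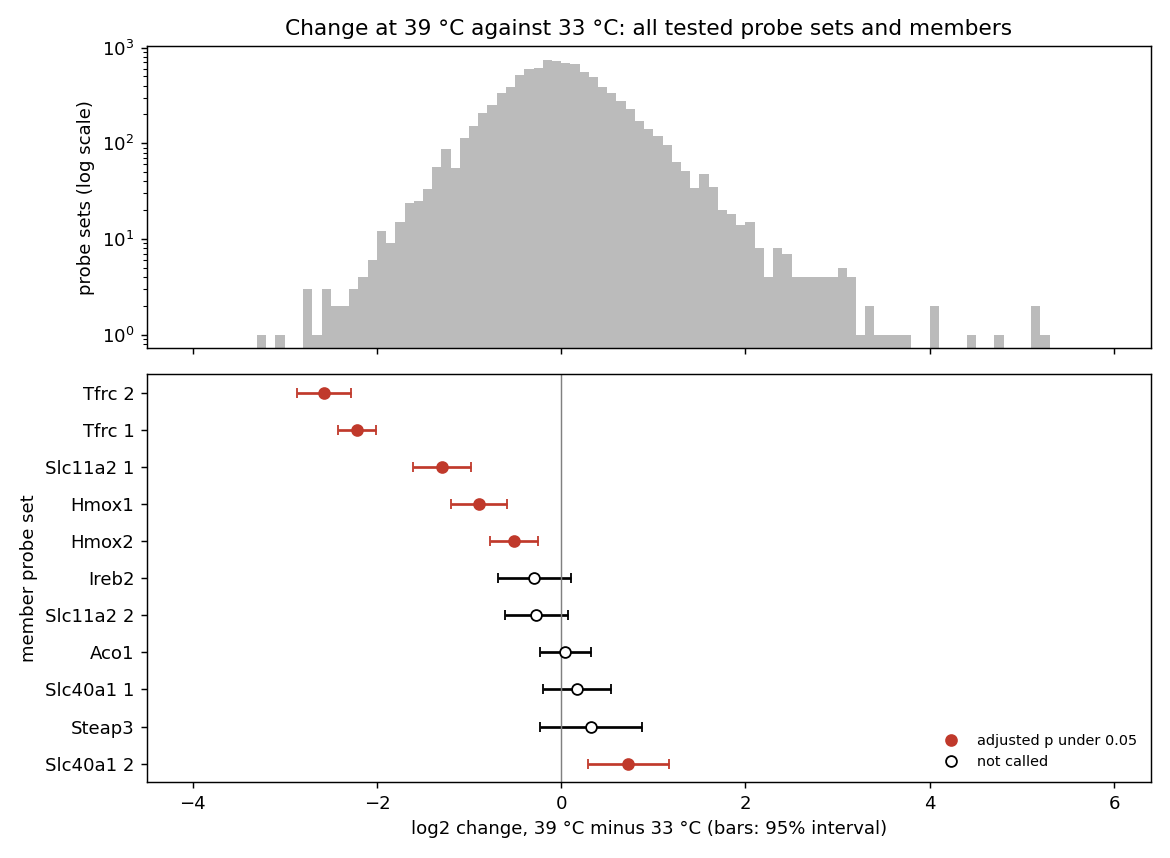
Upper panel: number of probe sets (log scale) by log2 change, 39 °C minus 33 °C, for all 9520 tested. Lower panel: the 11 tested member probe sets on the same horizontal axis with 95% intervals, filled where called. Tfrc stands in the far left tail, and the 5 open points have intervals that cross 0.

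At least 2-fold lower were 3 of the 11 member probe sets (27.3%), those of Tfrc and the brighter of Slc11a2, against 4.8% of all tested. None was at least 2-fold higher, against 6.1% of all tested. The balance of rises and falls over the whole array depended on the scaling. After quantile normalization 2144 probe sets were called higher and 2350 lower. The deposited scale gave 2458 higher and 2114 lower, median-centred arrays 1820 and 3016, and spike-in scaling 1079 and 4379. The median log2 change of all tested probe sets was -0.03, 0.03, -0.12 and -0.35 in the same order. With spike-in scaling 7 member probe sets were called lower and none higher.

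**Figure D3:**
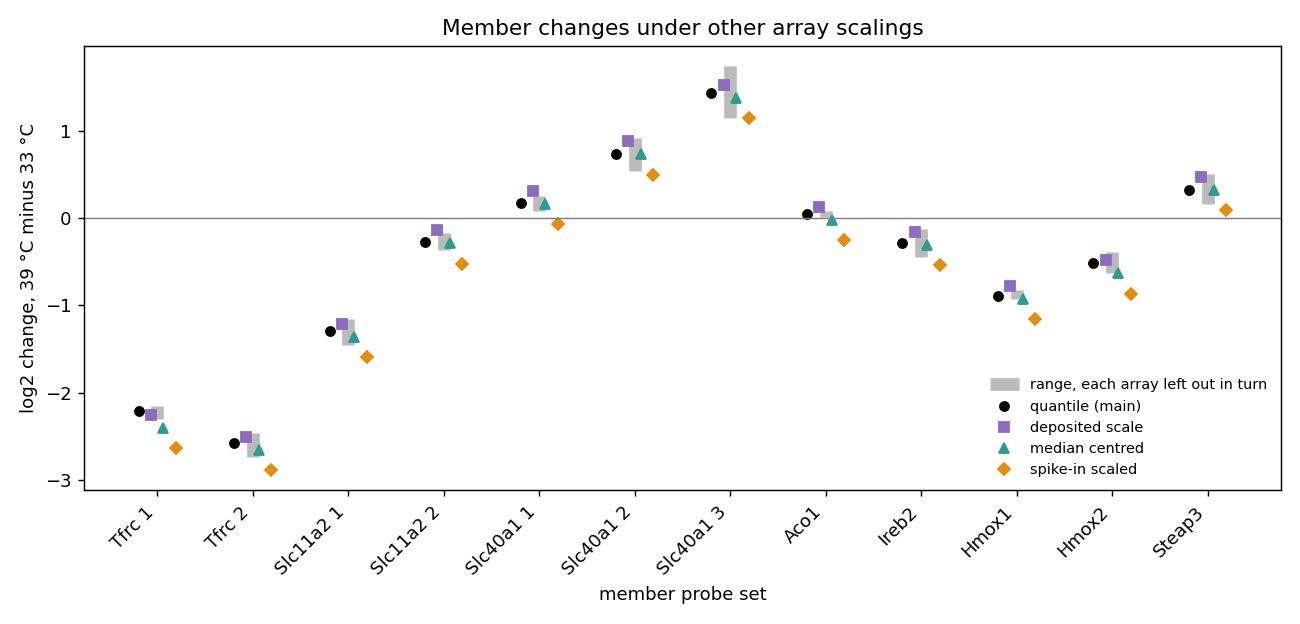
Log2 change, 39 °C minus 33 °C, of each member probe set under 4 array scalings (quantile, deposited, median-centred and spike-in), with a grey bar for the range when each array was left out in turn. The Tfrc, Slc11a2 and heme oxygenase points stay below 0 throughout, while Aco1 and the first Slc40a1 probe set lie on both sides of 0.

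Further genes of iron and heme metabolism were taken from 6 lists with 101 genes. A probe set was found for 74 of them, and 60 were bright enough to test, each by 1 probe set. As a background, 48.8% of 7017 genes were called, 22.9% higher and 25.9% lower. Under spike-in scaling 4379 of all 9520 tested probe sets were called lower and 1079 higher. The counts of these small lists are to be read against those shares.

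Of 9 tested genes of iron uptake, export and trafficking, 6 rose and 1 fell (median log2 change 0.47). Under spike-in scaling 1 was higher and 2 were lower. The largest rise was that of Slc39a8 (ZIP8), a metal importer that can carry zinc, manganese and iron. It was at 621.9 and 663.0 at 39 °C, against 164.1 and 135.6 at 33 °C, a 3.71-fold rise (log2 change 1.89 ± 0.15, SE, limma adjusted p = 3.23e-06). Thus the iron importer Tfrc and the metal importer Slc39a8 changed in opposite directions, with no overlap between groups for either.

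Pcbp1, a chaperone that delivers iron to ferritin, rose by 0.72 ± 0.10 and Snx3, which sorts transferrin receptor for recycling, by 0.51 ± 0.08 (SE, log2 scale). Under spike-in scaling these were 0.26 and 0.020, without a call. Lcn2, which binds iron-loaded siderophores, was the gene that fell. It was at 39.7 and 37.3 at 39 °C, under the limit for dim probe sets, against 272.7 and 263.6 at 33 °C (log2 change -2.49 ± 0.23, SE). Pcbp2, counted as higher (0.50), had a further probe set called lower at -1.89 (limma adjusted p = 4.03e-06), and was named after its values were seen.

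Of 7 tested genes of iron sensing and systemic control 1 was called, the BMP receptor Bmpr2. It was at 238.7 and 213.6 at 39 °C, against 120.2 and 99.2 at 33 °C, and rose by 0.80 ± 0.20 (SE, limma adjusted p = 0.00699). The call was lost without nonpermissive replicate 1 (0.74, adjusted p = 0.0723). The other 6 had log2 changes between -0.06 for Fbxl5, the iron-sensing ligase that marks Ireb2 protein for breakdown, and 0.24 for Cdc14a, and none of the 6 was called by the probe set used. Smad4, a signal carrier of BMP receptors, was among them (0.19), and its further probe set was called higher at 0.33 (limma adjusted p = 0.0316). Under spike-in scaling Fbxl5 was called lower (-0.38).

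In heme synthesis 2 of 7 tested genes fell, a share near the 25.9% of all genes, and none rose, against 22.9%. The median log2 change was -0.21. Under spike-in scaling, where falls were common over the whole array, 4 fell. Fech, which inserts iron into the porphyrin ring, was at 262.0 and 307.5 at 39 °C, against 514.4 and 493.9 at 33 °C, 1.86-fold lower (log2 change -0.89 ± 0.14, SE, limma adjusted p = 0.000402). Urod, an earlier enzyme of the pathway, was at 1041.9 and 1022.2 at 39 °C, against 1696.8 and 1760.8 at 33 °C, 1.66-fold lower. Alas1, the first and rate-limiting enzyme, was at 311.7 and 318.4 at 39 °C, against 340.1 and 336.0 at 33 °C and was not called (-0.21 ± 0.14, SE), but was called lower under spike-in scaling (-0.48, limma adjusted p = 0.0170).

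In heme handling and breakdown 2 of 5 tested genes fell, against 25.9% of all genes, and none rose, against 22.9%. The median log2 change was -0.06. Under spike-in scaling, where falls were common over the whole array, 4 fell. Blvra, the biliverdin reductase that acts after heme oxygenase, was at 108.8 and 141.3 at 39 °C, against 270.1 and 244.2 at 33 °C, 2.18-fold lower (limma adjusted p = 0.000861). Por, which supplies electrons to heme oxygenase, was at 1280.4 and 1159.4 at 39 °C, against 1408.6 and 1579.3 at 33 °C, a log2 change of -0.29 ± 0.11 (SE, limma adjusted p = 0.0473). The Por call was lost without either nonpermissive array (-0.37 without replicate 1 and -0.22 without replicate 2) and without permissive replicate 2 (-0.21). It was lost too with no limit for dim probe sets (adjusted p = 0.0737) and with no intensity trend (adjusted p = 0.114). A further Por probe set was called lower at -0.35 (limma adjusted p = 0.0275).

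Of 19 tested genes of iron-sulfur cluster assembly, 8 fell and 3 rose, where 25.9% of all genes fell and 22.9% rose. The median log2 change was -0.17. Under spike-in scaling, where falls were common over the whole array, 13 were lower and 2 higher. Hspa9, the mitochondrial chaperone that helps release clusters from their scaffold, was at 647.6 and 822.1 at 39 °C, against 1860.7 and 1727.2 at 33 °C, 2.45-fold lower, and its further probe set was at -1.46. Bola3, a late mitochondrial factor, was 1.86-fold lower and Nubp2, part of the cytosolic scaffold, 1.73-fold lower. In the other direction, Glrx3, a cytosolic glutaredoxin that carries clusters, was at 7330.1 and 7650.3 at 39 °C, against 4235.6 and 4505.5 at 33 °C, 1.84-fold higher. Mms19, which hands clusters to DNA enzymes, was 1.76-fold higher. Fdx1, a mitochondrial ferredoxin, rose by 0.48 ± 0.10 (SE) on the log2 scale and was at 0.048, not called, under spike-in scaling. The scaffold Iscu itself was at 1680.2 and 1646.9 at 39 °C, against 2159.3 and 2380.9 at 33 °C (log2 change -0.41 ± 0.10, SE).

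Hmox1 and the ferritins are known targets of Nrf2, the oxidant-responsive transcription factor encoded by Nfe2l2. In a list of 13 tested genes of this kind, which also holds Nfe2l2 and its inhibitor Keap1, 4 rose and 1 fell (median log2 change 0.12). Under spike-in scaling 2 were higher and 4 lower, with a median of -0.20. Further probe sets of this list did not all share these directions. Tkt, counted as higher (0.57, and 0.12 without a call under spike-in scaling), had one called lower at -1.40 (limma adjusted p = 0.000487). Gclc was not called (-0.32) but was called lower under spike-in scaling (-0.59) and without nonpermissive replicate 1 (-0.59). Its further probe set was called lower at -0.50 (limma adjusted p = 0.0256). Nfe2l2 was at 3009.4 and 3294.0 at 39 °C, against 1404.3 and 1266.1 at 33 °C, 2.43-fold higher (limma adjusted p = 2.73e-06). Ephx1, an epoxide hydrolase that is also a p53 target, was 27.8-fold higher. Nqo1, a quinone reductase, was at 2850.8 and 4068.0 at 39 °C, against 2316.6 and 2077.2 at 33 °C, a rise of 0.70 ± 0.14 (SE, log2 scale) that was 0.25 without a call under spike-in scaling. Without nonpermissive replicate 2 the Nqo1 change was 0.44, and without nonpermissive replicate 1 it was 0.97. Txnrd1, a thioredoxin reductase, fell by 0.37 on the log2 scale, but was not called without nonpermissive replicate 2 (-0.30, adjusted p = 0.0867) or with no intensity trend (adjusted p = 0.0519), and its further probe set was at -0.63. Gclm and Srxn1, also on this list, were at 0.12 and -0.013 and were not called.

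**Figure D4:**
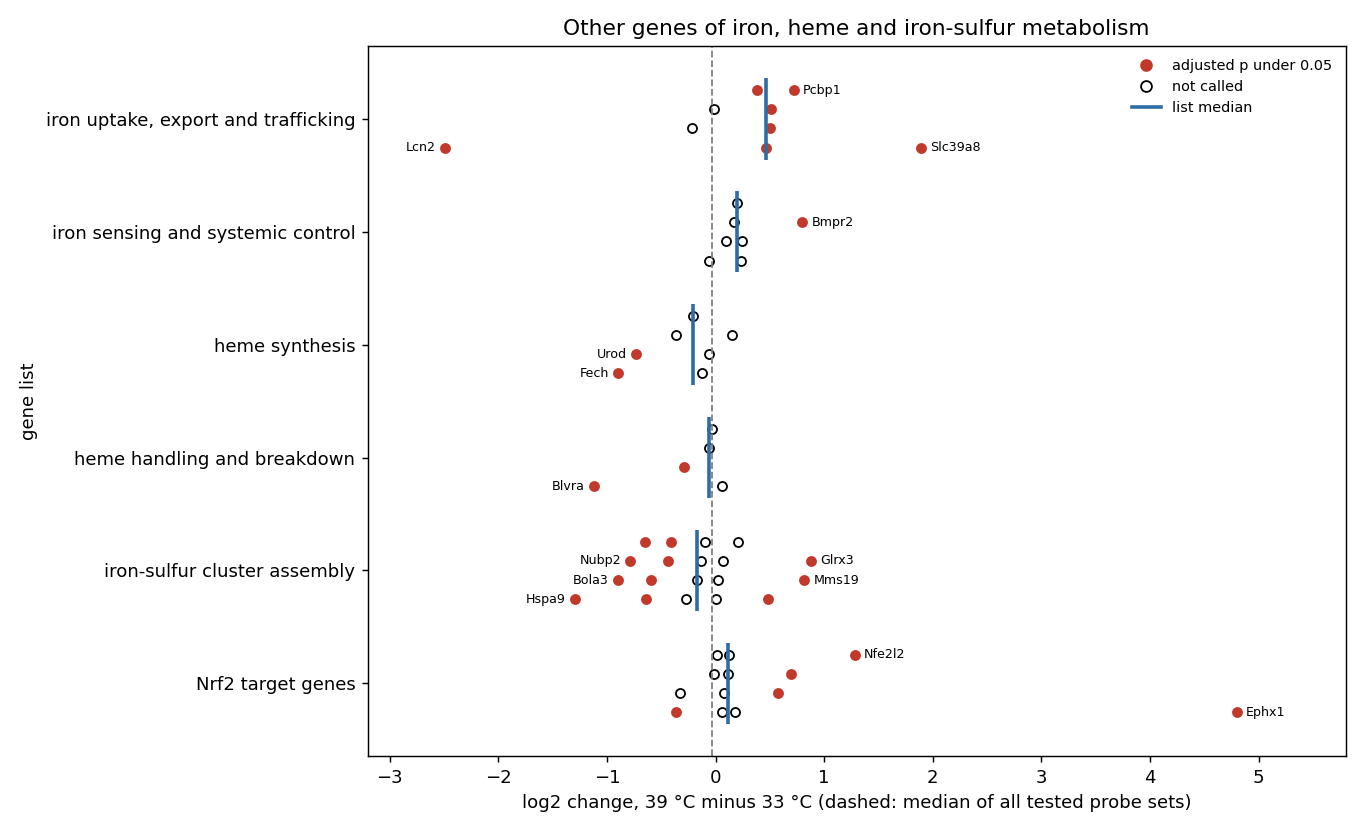
Log2 change, 39 °C minus 33 °C, of every tested gene in the 6 further lists, filled where called, with a bar at each list's median and a dashed line at the median of all tested probe sets. Lcn2 and Slc39a8 stand on opposite sides of their list, and Ephx1 stands far to the right of its own.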

How the data were processed

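Total RNA was measured on Affymetrix rat arrays, 1 colour, 1 array per sample. The authors deposited 1 intensity per probe set and array, on a linear scale, for 15923 probe sets. From the values, intensities have a mean near 500 on each array after trimming, so they had been scaled before deposit. The sources used here do not name the summarising software.

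Groups came from the sample titles. After 57 control probe sets were left out, log2(intensity + 16) was quantile normalized. Of the rest, 12783 probe sets had 1 gene symbol in GEO's platform annotation, 312 had several and 2771 had none listed. By Entrez identifier 12748 matched RefSeq (GRCr8), and 0 symbols changed. Probe sets under the 40th percentile of mean level (intensity 81.1) were left out as dim, which left 9520. Groups were compared with limma 3.58.1 in R 4.3.3 (intensity trend, 2 residual and 9.23 median prior degrees of freedom, two-sided, Benjamini-Hochberg over 9520). Figures used matplotlib 3.10.9. The procedure was tested on simulated data. For the 6 lists, each gene was represented by its brightest tested probe set. Named genes were all members, the 3 largest called rises and falls of each list and the 5 genes most like Tfrc, plus Pcbp2, Tkt, Gclc, Smad4, Fbxl5, Cdc14a, Alas1, Iscu, Gclm and Srxn1, named outside that rule after their values were seen. Members and lists were chosen with earlier results of these data known. Identical values made up 0.221% of probe sets at 39 °C and 0.202% at 33 °C, so no array was a copy of another. Alternatives were other scalings (24 poly-A spike-in controls among them), constants of 1 and 64, other dim limits, 1 probe set per gene, no trend, a replicate block and each array left out in turn.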

Additional observations from a re-analysis of the deposited data

Results flagged for a closer look

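The ferritin light chain probe set, which is annotated to Ftl1 and 4 other loci and so was not a member, was higher at 39 °C. Its intensities were 11580.2 and 11866.3 at 39 °C, against 10235 and 8324.4 at 33 °C. The log2 change was 0.42 (limma adjusted p = 0.00425), and the loci that contribute to it cannot be told apart. This probe set was not followed through the alternatives, so whether its rise holds under other scalings was not tested. Spike-in scaling moved the median log2 change of all tested probe sets from -0.03 to -0.35.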

How the results depend on the processing

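The 14 alternatives gave 3326 to 5458 probe sets called, against 4494, and 4 to 7 member probe sets called, against 6. Tfrc (both probe sets), the brighter Slc11a2 probe set and Hmox1 kept their direction and call wherever they were tested. Spike-in scaling, which shifts each array by 1 amount from the deposited scale, gave 3 calls in iron uptake, 2 in iron sensing and 4 each in heme synthesis and heme handling, and turned Slc40a1 probe set 1 to -0.074, Aco1 to -0.25, Gclm to -0.19 and Smad4 to -0.18. Aco1 was also at -0.021 with median-centred arrays. On the deposited scale Fbxl5 was at 0.0019 and Srxn1 at 0.053. With the dim limit at the 60th percentile, where fewer genes are tested, iron sensing had 0 calls and heme handling 1. Heme handling also had 1 with no intensity trend. Leaving out each array gave 0 to 1 calls in iron sensing and 1 to 2 in heme handling, and changes from -0.13 to 0.018 for Fbxl5 and from -0.11 to 0.082 for Srxn1, which had no call. For the calls lost and the reversals, beyond what the construction shows, the cause was not tested. The fit with the replicate number as a block called 4857 probe sets and the same number of member probe sets, 6. Whether the numbers pair the arrays is not known, since the labels do not say so. Deviations of same-numbered arrays correlated at -0.006, and the main fit treated the arrays as unpaired. No detection calls were used, so levels under the dim limit carry little information.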

Other observations

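The ferritin heavy chain probe set, annotated to Fth1 and the pseudogene Fth1-ps5, was at 19700 and 19536.3 at 39 °C, against 19895.9 and 18508.1 at 33 °C. Its log2 change of 0.12 had a 95% interval from -0.03 to 0.27 and was not called (limma adjusted p = 0.175).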
